A study of Sus scrofa with 16 samples.

Results

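In the hearts of Yorkshire pigs, 978 windows of 500 bp on chromosomes 1 to 18 had DNA methylation peaks over their middle base, where Tibetan pigs had none. A window was taken when this base, base 250, lay under 3 or 4 peaks of Yorkshire highland pigs and 3 or 4 peaks of Yorkshire lowland pigs, and under 0 peaks of both Tibetan groups. Joining adjoining windows gave 708 Yorkshire-only regions. They were 978 of the 620135 windows that held a peak of any group (0.158%), and the latter joined to 216122 regions. The number of peaks in all 4 groups chose these regions, so the absence of Tibetan peaks is a description, and no test of breed was made on it.

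DNA was measured in heart tissue of 16 male pigs of 6 months of age, castrated boars per the methods, with 4 animals in each group. The groups were Tibetan pigs raised at highland (TH), Yorkshire pigs raised at highland (YH), Tibetan pigs raised at lowland (TL) and Yorkshire pigs raised at lowland (YL). YH and TL were offspring of pigs that had been brought to the other elevation, whereas TH and YL were resident. Each group had 1 deposited list of peaks, in which the animals are not named, and at most 4 peaks of a list lay over a middle base. Each list was thus taken to hold the peaks of 4 animals put together, and the values below are those of single peaks of unnamed pigs. How the animals of a group were related is not given in the sources used here.

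Most CpG sites of a mammalian genome that lie outside of CpG islands carry a methyl group on their cytosine. In MeDIP-seq an antibody against 5-methylcytosine pulls down methylated fragments, which are sequenced, and a peak caller marks stretches where the mapped reads, called tags, exceed the local level. A peak thus marks a stretch of dense methylated CpG sites, and a stretch without a peak may still be methylated. Methylation at promoters often accompanies silencing, whereas methylation within genes and between them is the usual state of the genome.

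The number of peaks and the tags within them differed among the groups. In the highland, TH had 280678 peaks and YH 287224, with 10.5 and 11.3 M tags in peaks (M, 1000000 tags). In the lowland, TL had 259066 peaks and YL 332078, with 8.64 and 13.9 M tags. The median peak of TH had 27 tags and that of YH 29, and lowland medians were 25 (TL) and 30 (YL). Of windows under 4 peaks there were 20292 and 29879 for the Tibetan groups (TH, TL) and 45306 and 49464 for the Yorkshire groups (YH, YL). The Yorkshire list was thus the deeper one by peaks and by tags at either elevation, and TH had the fewest windows under 4 peaks.

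Yorkshire-only windows were more frequent than those of any other pair of groups. By the same rule, 125 windows in 99 regions were Tibetan-only (0.0202% of the windows with a peak), 46 were highland-only (0.00742%) and 56 were lowland-only (0.00903%). The pairs that share neither breed nor elevation gave 174 windows (TH and YL, 0.0281%) and 50 windows (YH and TL, 0.00806%). TH and YL thus had more such windows than the Tibetan pair. There were 7.82 Yorkshire-only windows for each Tibetan-only window. This excess moved with the choice of peaks. With the 259066 peaks with the most tags taken from every list, 784 Yorkshire-only and 180 Tibetan-only windows were found, and with the 259066 peaks of highest fold enrichment the numbers were 536 and 473. Fold enrichment is the ratio of the tags in a peak to the local level, and its median was 8.28 and 7.88 for the Tibetan lists (TH, TL) and 7.29 and 7.49 for the Yorkshire lists (YH, YL). The Tibetan lists thus had fewer peaks of higher fold enrichment, and the excess of Yorkshire-only windows fell to 1.13 for each Tibetan-only window when peaks were ranked by that measure.

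Among windows that the Yorkshire groups shared, absence of a Tibetan peak was the rarest state. At least 3 peaks in both YH and YL were found at 67217 windows, and 978 of these had no Tibetan peak (1.45%; 95% Wilson interval, 1.37 to 1.55%). One Tibetan peak was found at 2193 of these windows, 2 at 3926, 7 at 12799 and all 8 at 9960. Of the 40966 windows that the Tibetan groups shared, 125 had no Yorkshire peak (0.305%; 95% Wilson interval, 0.256 to 0.363%), and 17939 had all 8. The number of windows fell steadily from 7 Tibetan peaks to 0, and the Yorkshire-only windows were the end of this slope. Neighbouring windows share peaks, so these intervals, which cover counting error only, are too narrow.

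**Figure D1:**
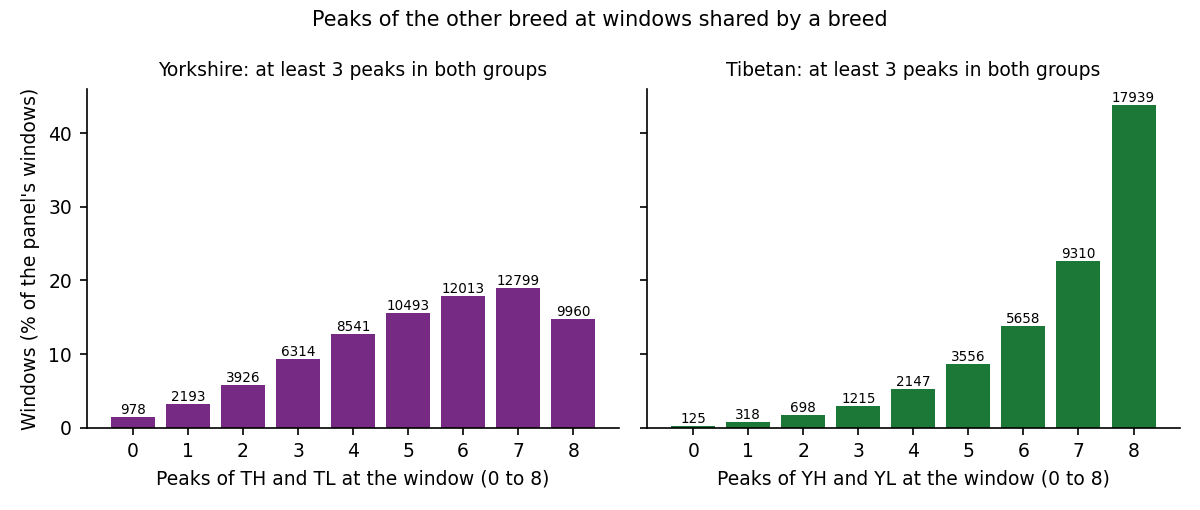
Percent of windows (y axis) by the number of peaks of the other breed at the window (x axis, 0 to 8), for windows with at least 3 peaks in both Yorkshire groups (left) or in both Tibetan groups (right). Bars give percentages and the numbers above them the windows; the 978 Yorkshire-only windows are the first bar on the left and the 125 Tibetan-only windows the first bar on the right.

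Most Yorkshire-only windows stood near the limit of the rule. Of the 978 windows, 561 had 3 peaks in each Yorkshire group, 181 had 3 in YH and 4 in YL, 144 had 4 in YH and 3 in YL, and 92 had 4 in both. The percentage of windows without a Tibetan peak was 3.41% of 16449 windows with 3 and 3 peaks, and 0.350% of 26289 windows with 4 and 4. Windows under more Yorkshire peaks were thus less often free of Tibetan peaks. Just outside the limit, 923 windows without a Tibetan peak had 3 peaks in YH and 2 in YL, and 1071 had 2 and 3. A single TH peak was present at 1163 windows that otherwise passed, and a single TL peak at 1030.

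The 708 regions were short. A single window made up 496 regions, 170 held 2 windows, 31 held 3, 8 held 4, 2 held 5 and 1 held 7. With 3 YH and 3 YL peaks 399 regions just met the limit, whereas 71 regions had 4 and 4.

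The regions were split by whether the Yorkshire peaks over them overlapped a Tibetan peak elsewhere. In 320 regions (45.2%; 95% Wilson interval, 41.6 to 48.9%) no covering Yorkshire peak overlapped a Tibetan peak anywhere along its length. In 346 regions (48.9%; 45.2 to 52.5%) every covering peak overlapped a Tibetan peak, which could reach into the region but not to a middle base, and 42 regions (5.93%) were mixed. The first are called apart regions and the second edge regions below. Of the 99 Tibetan-only regions, 66 were apart from Yorkshire peaks (66.7%; 56.9 to 75.2%), 25 were edges and 8 were mixed.

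The peaks over apart regions were somewhat shorter and had somewhat fewer tags than those of the whole lists. These covering peaks had a median of 24 tags in YH and 25 in YL, against 29 and 30 in the whole lists. Their median length was 932 bp in YH and 956 bp in YL, against 1027 and 1045 bp. Fold enrichment was 7.56 in YH and 8 in YL, slightly above the 7.29 and 7.49 of the whole lists. Of their peaks, 27.6% in YH and 29.3% in YL were in the lowest 25% of their list by tags, and 11.7% and 11.9% in the highest 25%. All summits lay inside the region in 257 of the 320 apart regions (80.3%). The nearest Tibetan peak was a median of 3447.5 bp away from the region, and in 193 of the 320 regions it was more than 2000 bp, in 34 more than 10000 bp, from the covering peaks. Yorkshire peaks thus mostly had their summit in these regions. The split in part sets this, since no Tibetan peak removes windows from under the covering peaks of apart regions. The tags of these peaks reached 193 in YH and 261 in YL. A short peak overlaps a Tibetan peak less readily, so the shorter length and fewer tags are in part set by the split.

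Edge regions were mostly carried by long peaks with many tags. The covering peaks of the 346 edge regions had a median of 48.5 tags in YH and 51 in YL, a fold enrichment of 6.2 and 6.5, and a length of 1647 and 1682 bp. In YH 51.2% and in YL 52.2% of them were in the highest 25% of their list by tags. No summit lay inside the region in 220 of the 346 (63.6%), so that the Yorkshire peaks there had their centre elsewhere. That they reached further than the Tibetan peaks is set by the rule. A longer peak overlaps a Tibetan peak more readily, so the length and tags of edge peaks are in part set by the split. The place of their summits is so too, since a Tibetan peak removes the windows it covers. The overlapping Tibetan peaks lay on 1 side in 332 regions and on both sides in 14. Both Tibetan groups had such a peak at 202 regions, and at 48 (13.9%) each had at least 3 over a common base. At 98 regions 1 Tibetan group alone had peaks, with no more than 1 over any base. At windows with at least 3 peaks in all 4 groups, for comparison, covering peaks had a median of 43 tags in YH and 45 in YL and lengths of 1314 and 1336 bp.

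**Figure D2:**
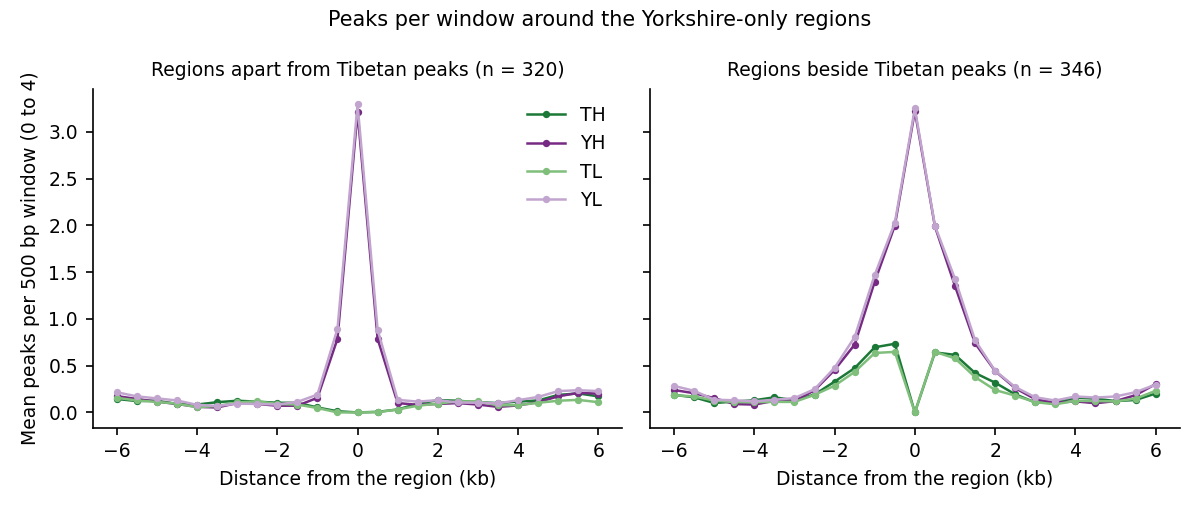
Mean number of peaks per 500 bp window (y axis, 0 to 4) by distance from the region (x axis, kb) in TH, YH, TL and YL, for the 320 apart regions (left) and the 346 edge regions (right). At 0.5 kb from apart regions, TH and TL had 0.00938 and 0.00156 peaks per window against 0.787 in YH and 0.889 in YL, whereas beside edge regions TH and TL had 0.688 and 0.647 against 1.99 and 2.01. The value of 0 for TH and TL at the region is set by the rule, and the contrast between the panels close to it by the split into apart and edge regions.

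The plot of peaks around the regions describes the split, since the overlap with Tibetan peaks that defines it also sets the Tibetan values close to a region. Beside apart regions the Yorkshire peaks fell to 0.128 (YH) and 0.163 (YL) per window at 1 kb, and at 2 kb all groups had from 0.0813 to 0.117. Beside edge regions YH and YL still had 1.38 and 1.45 peaks per window at 1 kb, and TH and TL had 0.656 and 0.607. At 5 kb from edge regions the 4 groups had from 0.111 to 0.153. At 2 kb from edge regions the Yorkshire groups had 0.448 (YH) and 0.461 (YL) and the Tibetan groups 0.324 (TH) and 0.263 (TL).

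**Figure D3:**
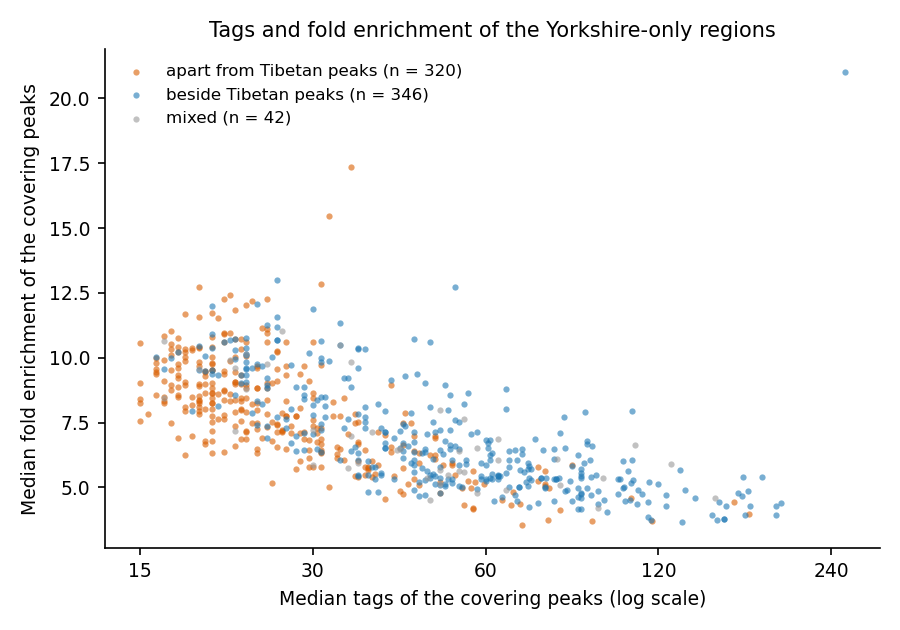
Median fold enrichment (y axis) against median tags (x axis, log scale) of the YH and YL peaks that cover a region, 1 point per region, coloured by kind. Apart regions crowd at the left, with a median of 24.25 tags and a fold enrichment of 7.90, edge regions spread to the right, with 50 tags and 6.36, and the region of chromosome 2 stands alone at the upper right.

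The rule chose windows that YH and YL peaks both cover, so that their places coincide by choice. The median tags of the covering peaks were higher in YL in 447 of 708 regions (63.1%), higher in YH in 237 and equal in 24, and the median ratio of YL to YH was 1.07. This was close to the ratio of the median tags of the whole lists (1.03) and below that of the summed tags (1.23). The median summits of YH and YL were 34.25 bp apart in the median region, and within 100 bp in 531 regions (75%). The summits were closer at apart regions (29.0 bp) than at edge regions (41.0 bp). The split gave edge regions the longer peaks, which leave more room between summits.

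The longest region was chr1:9365501-9369000, with 7 windows. Its YH peaks had 136, 152 and 193 tags and its YL peaks 128, 205 and 261, and no Tibetan peak lay within 4032 bp. All 6 peaks were from 3777 to 5119 bp long with a fold enrichment of 3.34 to 5.36, so broad peaks of low fold enrichment made up this region, and its annotated window is intergenic. A region of 5 windows, chr9:14441001-14443500, had 109, 118 and 143 tags in YH and 182, 210 and 211 in YL, so that every YL peak was above every YH peak in raw tags. The nearest Tibetan peak was 11438 bp away. The other region of 5 windows, chr7:81448001-81450500, had 33, 33, 57 and 64 tags in YH and 68, 73 and 79 in YL, in raw tags. Both YH peaks of 33 tags were short and lay side by side, so they may be of the same animal. At chr2:141858501-141860500 the YH peaks had 48, 55, 64 and 72 tags and the YL peaks 54, 56 and 72, and the groups overlapped. All 4 of these long regions were apart from Tibetan peaks, but none was left with equal numbers of peaks by fold enrichment, with fold enrichment at or above 7.70, or with 4 peaks in both groups.

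Of the other regions with 4 windows that were named by size, those on chromosome 8 are described below, and a pair touched Tibetan peaks. At chr13:207969001-207971000 the YH peaks had 100, 105, 113 and 121 tags and the YL peaks 50, 77, 113 and 140, and a single TH peak of 30 tags reached its last window. At chr14:64771001-64773000 YH had 47, 66, 74 and 77 tags and YL 38, 77, 81 and 83, and a single TH peak of 20 tags reached its start. In both regions each group had 4 covering peaks and the values of the groups overlapped.

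Regions of the highest fold enrichment included strong methylation peaks of both breeds. The highest value was at chr2:72639001-72639500, where 4 YH peaks had 244, 250, 254 and 254 tags and 3 YL peaks 238, 253 and 296, with a fold enrichment of 18.9 to 22.3. Both Tibetan groups had up to 4 peaks over a common base along these Yorkshire peaks, with 79 to 228 tags in 5 TH peaks and 200 to 264 tags in 4 TL peaks. Their ends fell from 72638242 to 72639083, before the middle base of the window. At this region the breeds differed in where the peak ended. In raw tags the Yorkshire peaks overlapped with those of TL. Per M tags in peaks of the list the ranges were 7.51 to 21.7 (TH), 23.1 to 30.6 (TL), 21.5 to 22.4 (YH) and 17.1 to 21.3 (YL), so every TL peak was above the Yorkshire peaks, and a pair of TH peaks lay side by side and may be of the same animal. Likewise, at chr2:2382501-2383000 and chr12:21593001-21593500 Tibetan peaks of both groups, with 22 to 51 and 15 to 29 tags, ended before the middle base. These 3 edge regions depend on the grid, since each was lost when windows were shifted by 250 bp, when any overlap was counted and when the whole window had to be covered.

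Apart regions of high fold enrichment had Yorkshire peaks alone. At chr1:158078001-158078500 the YH peaks had 23, 29 and 46 tags, with fold enrichments of 12.8, 12.5 and 27.0, and the YL peaks had 29, 35, 47 and 51 tags, with 14.1, 17.4, 25.2 and 26.8. No Tibetan peak lay within 5352 bp, and the annotated window is intergenic. At chr13:204727501-204728000 the YH peaks had 22, 24, 31 and 33 tags and the YL peaks 13, 44, 55 and 55, which is 4 peaks in each group. At chr14:89227001-89227500 YH had 20, 21, 30 and 32 tags and YL 24, 35, 36 and 49, and the nearest Tibetan peak was 10482 bp away. Tags of YH and YL overlapped at each of these regions. At chr1:269805001-269805500 and chr13:127176001-127176500, in contrast, Tibetan peaks lay 865 and 930 bp away.

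The regions farthest from any Tibetan peak had few tags. At chr14:94201501-94202000 the distance was 75731 bp, and the YH peaks had 16, 17 and 18 tags against 19, 31, 34 and 42 in YL. At chr5:57871001-57871500, 44731 bp from a Tibetan peak, YH had 16, 18 and 19 tags and YL 13, 17 and 25. At chr6:132853501-132854000, chr1:130552001-130552500 and chr15:106878501-106879000 the distance was 41830, 37723 and 36532 bp, and no peak had more than 23 tags. The lowest number of tags of any peak was 13 in the YH list and 12 in the YL list, and apart from YL at the first of these regions the peaks had 13 to 25 tags, below the median of their list. None of these 5 regions was left when peaks under 20 tags were removed.

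Yorkshire-only regions were most crowded in 1 place of the genome. Over the 18 chromosomes, 458 bins of 1 Mb held 1 region, 97 held 2, 15 held 3 and 1 held 4, whereas 1 bin on chromosome 8, from 43000001 to 44000000, held 7. These 7 regions, with 16 windows, lay within 466.5 kb (chr8:43381501-43848000), and they were 16 of the 66 windows of the 1 Mb bin that both Yorkshire groups shared (24.2%, against 1.45% over all chromosomes). The median distance of a region to the nearest other region was 842 kb over the genome. Of these 7 regions, 3 were left with equal numbers of peaks by fold enrichment, 1 with fold enrichment at or above 7.70 and 2 with 4 peaks in both groups, whereas all 7 were left with equal numbers of peaks by tags.

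Over the stretch Yorkshire pigs had more peaks and more tags, also between the 7 regions. Its borders are the first and the last of regions chosen for the absence of Tibetan peaks, and the sums count only called peaks. There were 116 YH and 126 YL peaks with 7661 and 11827 tags, against 66 TH and 56 TL peaks with 2060 and 1670 tags. Per M tags in the peaks of a list YH had 675.9 and TH 195.8, a ratio of 3.45, and YL had 851.3 and TL 193.3, a ratio of 4.40. Peaks covered 42.2 kb of the stretch in TH and 98.7 kb in YH, and 35.5 kb in TL and 113.0 kb in YL. A peak had on average 31.2 tags in TH and 66.0 in YH, and 29.8 in TL and 93.9 in YL. Both the covered length and the tags per peak were thus higher in the Yorkshire lists. Of 24 bins of 20 kb, YH was above TH in 20 and below it in 2, and YL was above TL in 22, with 2 bins without a peak. In the 500 kb before the stretch the ratios were 1.24 and 1.24, and in the 500 kb after it 1.32 and 1.14. The bins of 20 kb just outside were uneven. In the bin that begins 40 kb before the first region YH had 40.8 and TH 10.7 tags per M, and YL 48.7 and TL 11.9, but in the next bin YH had 0 and TH 4.18, and YL 8.85 and TL 4.86. In the bin that begins 480 kb after the start of the first region YH had 17.9 and TH 6.37, and YL 19.8 and TL 4.63. Of 2046 bins of 1 Mb with at least 40 peaks in each list, the bin that holds the stretch had the highest ratio of Yorkshire to Tibetan tags at both elevations, 2.42 in the highland and 2.82 in the lowland, where the medians of all bins were 1.02 and 0.980 and the next highest values 2.26 and 1.53. The bin was picked for its Yorkshire-only regions, so its place in this order is a description that shares values with the rule. Tags count the fragments pulled down, and no input library was used here, so the number of tags per copy of the DNA is not known.

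**Figure D4:**
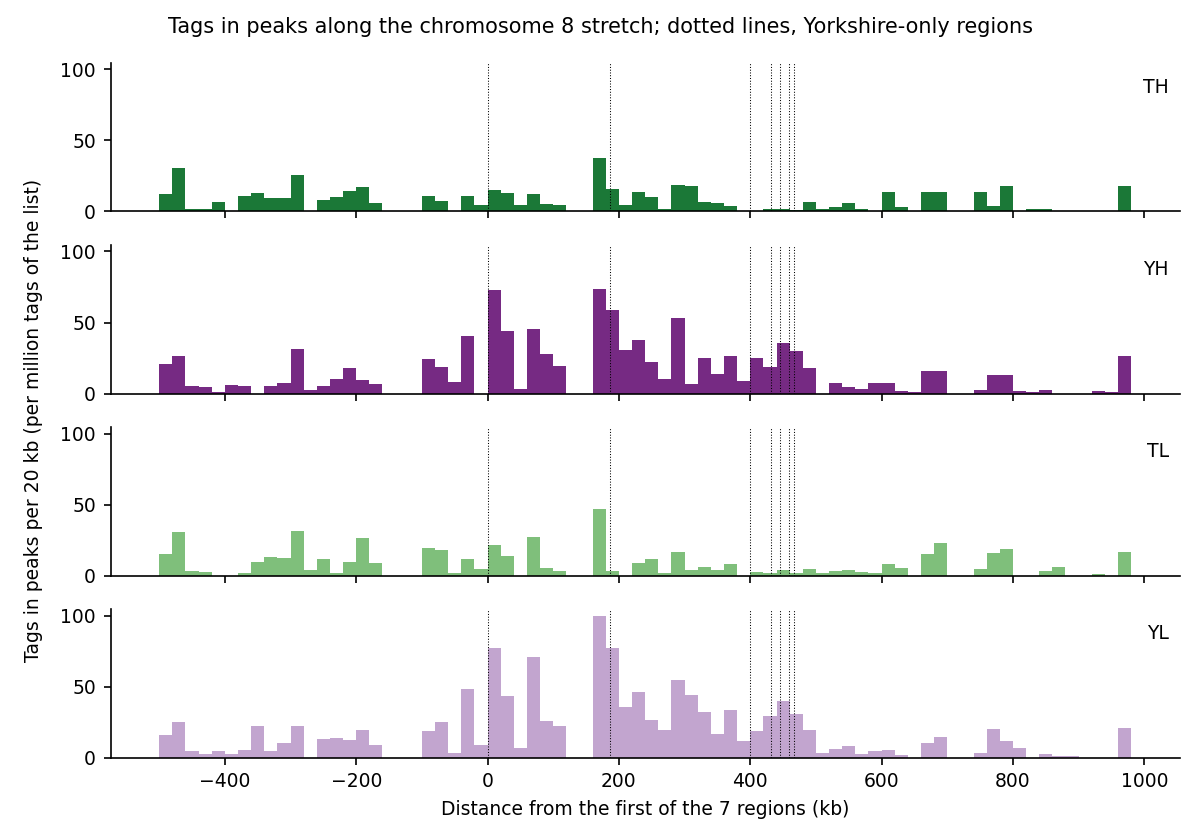
Tags in peaks per 20 kb, per M tags in the peaks of the list (y axis; M, 1000000 tags), in TH, YH, TL and YL, by distance from the first of the 7 Yorkshire-only regions on chromosome 8 (x axis, kb). Dotted lines mark the regions; YH is above TH in 20 and YL above TL in 22 of the 24 bins from the first region to the last.

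The 7 regions of chromosome 8 differed in size. At chr8:43381501-43383500 the YH peaks had 68, 81 and 85 tags and the YL peaks 73, 134, 154 and 165, with no Tibetan peak within 6384 bp. At chr8:43566501-43568500, 5 YH peaks had 70 to 227 tags and 4 YL peaks 88 to 328, and TH peaks of 34, 40 and 48 tags lay at both sides and a TL peak of 29 tags at 1 side. In raw tags the Yorkshire peaks there exceeded every Tibetan one beside them. In fold enrichment they did not, with 3.98 to 5.59 in YH and 4.53 to 5.16 in YL, against 4.18 to 5.96 in TH and 4.8 in TL. The Yorkshire peaks were 1594 to 4918 bp long and the Tibetan ones 955 to 1910 bp. At chr8:43780001-43781000 each Yorkshire group had 4 peaks, of 19, 20, 20 and 23 tags in YH and 20, 21, 24 and 25 in YL, and the nearest Tibetan peak was 10285 bp away. The other 4 lay close together, between 43813501 and 43848000. Their YH peaks had 22 to 114 tags and their YL peaks 31 to 106, and the TH and TL peaks that touched a pair of them had 13 to 17 tags. The genes of this stretch were not analysed here.

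On the other chromosomes the regions were spread thinly. The bin with 4 regions was on chromosome 4, from 82000001 to 83000000, and tags per M over its stretch were 1.52 times higher in YH than in TH and 1.21 times higher in YL than in TL. The percentage of shared Yorkshire windows that had no Tibetan peak was highest on chromosome 13 (2.20%; 95% Wilson interval, 1.77 to 2.72%), followed by chromosome 8 (1.98%) and chromosome 15 (1.91%), and lowest on chromosome 16 (0.914%; 0.579 to 1.44%). Without the 1 Mb bin of the 7 regions, left out after its values were seen, chromosome 8 had 1.57% (1.21 to 2.03%), so its place in this order rests on that bin. The intervals of chromosomes 13 and 16 do not overlap, but neighbouring windows are not independent. Regions per Mb ranged from 0.153 on chromosome 1 to 0.493 on chromosome 10. On chromosome 1, 36 of 48 regions were apart from Tibetan peaks (75%), and on chromosome 11, 8 of 32 (25%).

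**Figure D5:**
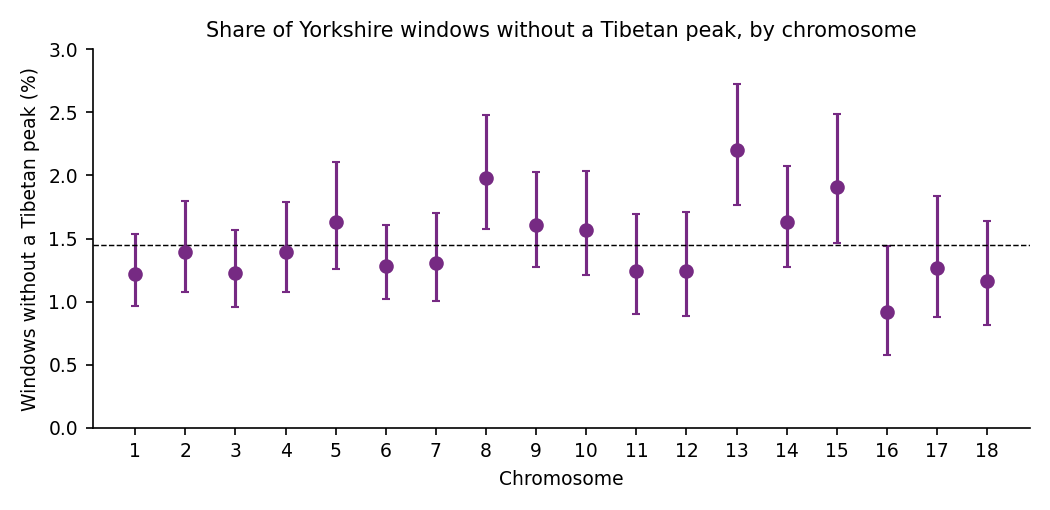
Percent of windows with at least 3 peaks in both YH and YL that had no Tibetan peak (y axis), by chromosome (x axis), with 95% Wilson intervals as bars and the value over all 18 chromosomes, 1.45%, as a dashed line. Chromosomes 13, 8 and 15 lie above the line with their whole interval, chromosome 8 only with the 1 Mb bin of the 7 regions (1.57% without it), and chromosome 16, with an interval of 0.579 to 1.44%, lies below it.

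Yorkshire-only regions were fewer near chromosome ends than other shared Yorkshire windows. The outer 10% at each end held 175 of the 708 regions (24.7%; 95% Wilson interval, 21.7 to 28.0%), against 35.0% of the 67217 windows with at least 3 peaks in YH and YL. For apart regions this was 18.4% (14.6 to 23.1%), and for edge regions 29.8% (25.2 to 34.8%). Counted as windows, 25.5% of the 978 Yorkshire-only windows lay there (22.8 to 28.3%). Of the 125 Tibetan-only windows it was 24.8% (18.1 to 33.0%), against 36.6% of the 40966 windows with at least 3 peaks in TH and TL. The share near the ends was thus below that of the shared windows in both breeds.

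Few of the regions could be set beside genes. Annotation of single windows of this genome build was used for 6 chromosomes, which held 246 of the 708 regions. It named a window of 45 regions, on 5 of these chromosomes, and came from the study's lists of differentially methylated windows. These 45 regions were thus chosen by the study on the same animals. At 40 of the 45 (88.9%) the window was intergenic, against 90.4% of all 3443 windows of the annotation used, so this share was near the background. At 5 it was in an intron, of 4 genes.

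Neighbouring genes on chromosome 11 held a region each. In an intron of HTR2A, which encodes a serotonin receptor, the region chr11:20940001-20940500 had 33, 50 and 59 tags in YH and 47, 48 and 60 in YL. TH peaks of 16, 24 and 28 tags overlapped the Yorkshire peaks from 1 side and no TL peak did, so it was an edge region. In an intron of ESD, which encodes esterase D, chr11:21000501-21001000 had 21, 23 and 27 tags in YH and 15, 34, 35 and 36 in YL. No Tibetan peak lay within 7182 bp, and this was the apart region among the 5. RefSeq's pig genome, of another build, also lists HTR2A and ESD as neighbours.

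The other introns were those of CAMK1D, which encodes a calcium/calmodulin-dependent protein kinase, and NPG3, the symbol of a protegrin, an antimicrobial peptide of pig leukocytes. At CAMK1D, chr10:64959501-64960000 had 63, 73 and 92 tags in YH and 59, 94 and 98 in YL, and 3 TH peaks of 26, 36 and 41 tags lay beside it, the nearest 218 bp away. At NPG3 a pair of regions, chr13:34213501-34214000 and chr13:34215001-34215500, had the same YH peaks, of 61, 63, 76 and 170 tags, and YL peaks of 52, 61 and 72 tags and of 43, 61 and 72 tags. TH peaks of 18 and 19 tags lay between these 2 regions, reaching into the second, and no TL peak did. Protegrin genes are close copies of each other, so the place of reads there is uncertain. The second NPG3 region was lost with windows shifted by 250 bp, with any overlap and with the whole window covered. The first NPG3 region and that of CAMK1D were lost with the whole window covered, and that of HTR2A with any overlap and with equal numbers of peaks by fold enrichment. All 5 gene regions were lost with fold enrichment at or above 7.70 and with 4 peaks in both groups. At HTR2A, CAMK1D and NPG3 the Tibetan peaks beside the region were of TH alone.

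A further pair of regions lay between windows annotated to the same gene. At PARK2, the gene of the ubiquitin ligase parkin, chr1:8024501-8025000 had 44, 51 and 71 tags in YH and 55, 65 and 78 in YL, 121 bp from TH peaks. At SMYD3, which encodes a lysine methyltransferase, chr10:21434501-21435000 had 20, 21 and 26 tags in YH and 26, 32 and 37 in YL, 2276 bp from any Tibetan peak. The annotation of these windows themselves was not at hand. Of the 24 genes that the study singled out for bisulfite sequencing or for hypoxia, 12 had a window in the annotation used here, 16 windows in all, and 0 of these were Yorkshire-only windows. The 16 windows came from the study's lists of differentially methylated windows. The Yorkshire-only share of all windows with a peak, 0.158%, is thus no background for them. They are too few to read anything from this. The nearest Yorkshire-only region to such a window was 9.50 kb away, at STAT5B, a transcription factor of cytokine signalling.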

How the data were processed

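Per the labels and methods, heart DNA of 16 pigs was immunoprecipitated and sequenced, and the authors used FASTX for trimming, Bowtie for mapping to Sscrofa10.2 (also named in the submitters' processing notes) and MACS for peak calling. Deposited was 1 peak list for each group, with every peak's position (bp), tags (a count, not normalized) and fold enrichment (a ratio). The end of 100907 TH peaks was taken from the joint start and end field. Reads per animal were not analysed here.

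Peaks over base 250 of each 500 bp window were counted per list, and adjoining windows were joined. The members, gene lists and comparisons were chosen with earlier results of these data known. Regions were named by rank: the 8 with the most windows (ties by higher median fold enrichment), the 8 of highest median fold enrichment, the 5 farthest from Tibetan peaks, those in 1 Mb bins with at least 5, and those with a gene symbol in the part of the study's window annotation used here. Intervals are 95% Wilson intervals and cover counting error only, and no test was run, since peaks carry no animal names. The counting was tested on simulated data. Alternatives were other limits of peaks, tags and fold enrichment, equal numbers of peaks, other overlaps, shifted windows, chromosome X and means. Leaving a 1 Mb bin out of chromosome 8 was added after seeing the data. No genome of Sscrofa10.2 was used, so sequences and CpG sites were not analysed here. Scripts ran under Python 3.11.15 with Matplotlib 3.10.9 for plots, and SciPy 1.17.1, pandas 2.3.3 and NumPy 2.4.6 for the rest.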

Additional observations from a re-analysis of the deposited data

Results flagged for a closer look

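Windows outside of chromosomes 1 to 18 were not among the Yorkshire-only windows above, but some met the same limits. On chromosome X there were 33 such windows in 23 regions, of 1416 windows with at least 3 peaks in YH and in YL (2.33%; 95% Wilson interval, 1.66 to 3.25%). The Tibetan-only count there was 0 of 455, which allows a share of up to 0.659% by the limit of 3 counts (0.837% by the Wilson interval). The lists held 7015 (TH), 7650 (YH), 3821 (TL) and 8911 (YL) peaks on X, so TL had the fewest there.

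On unplaced scaffolds 49 windows in 38 regions met the limits, on 37 of 2418 scaffolds. They were 49 of 4671 windows shared by the Yorkshire groups (1.05%; 0.794 to 1.38%), against 10 of 2912 shared by the Tibetan groups (0.343%; 0.187 to 0.631%).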

How the results depend on the processing

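Yorkshire-only exceeded Tibetan-only windows under each alternative run, by 1.13 times (equal numbers of peaks by fold enrichment) to 30.7 times (4 peaks in both groups). Yorkshire-only windows numbered 536 (433 regions) with equal numbers of peaks by fold enrichment, 190 (163 regions) with fold enrichment at or above 7.70, 603 with the whole window covered, 92 (72 regions) with 4 peaks in both groups, 3171 (2196 regions) with at most 1 peak of the other breed and 6071 (4292 regions) with at least 2 peaks in both groups. Tibetan-only windows numbered 473 with equal numbers by fold enrichment, 68 with at least 20 tags, 201 with any overlap, 46 with the whole window covered, 3 with 4 peaks, 443 with at most 1 and 1548 with at least 2. Apart regions were 36.1% with equal numbers of peaks by tags and 27.3% when no Tibetan peak could lie within 2000 bp. Mean tags were 44.7 (YH) and 48.3 (YL) and mean fold enrichments 7.29 and 7.68, in place of medians. The outer 5% at each end held 11.2% of the regions, against 20.6% of the 67217 windows with at least 3 peaks in YH and YL. Of the 31 named regions, 7 were kept with 4 peaks, 11 with fold enrichment at or above 7.70, and 16 to 31 otherwise. No paired analysis was possible because the peaks carry no animal names or numbers, and each animal could not be left out in turn for the same reason. Sequence features were not run, since no genome of this build was used.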
